A study of Homo sapiens with 7 samples.

Results

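The semaphorins, their plexin and neuropilin receptors, and the ephrins with their Eph receptors comprised 53 of the 33694 genes in the count table. They were chosen by gene symbol alone: SEMA classes 3 to 7, the plexins PLXNA to PLXND, NRP1 and NRP2, the EPHA and EPHB receptors, and the EFNA and EFNB ligands. The families were proposed with results of the one comparison of this study in view. Fold changes, adjusted p-values and counts of called members are therefore given as a description of these libraries and support nothing further. The cells were HK2, an immortalised human proximal tubule line, so every library came from 1 line. Of the 7 libraries, 4 (replicates 1 to 4, genotype labelled WT) received a scrambled siRNA, and 3 (replicates 2 to 4, labelled as a GLUT2 knockdown) received an siRNA to GLUT2. Both groups got siRNA at 50 nM with the RNAiMAX reagent and were lysed after 96 h. RNA was read by a 3' digital mRNA-seq method that counts transcript ends, and the labels call the libraries biological replicates without giving the origin of each culture, so a p-value here reflects only how these libraries vary, which may be technical.

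Semaphorins are secreted or membrane-bound guidance cues that bind plexins, whose cytoplasmic part acts on small GTPases and so on the actin cytoskeleton and on integrin adhesion. The secreted class 3 members bind neuropilins, which lack a large signalling domain of their own, form complexes with plexins and also bind vascular endothelial growth factors. Eph receptors are tyrosine kinases that bind ephrins on a neighbouring cell. A-type ephrins are held by a lipid anchor and B-type ephrins span the membrane, and both sides of the contact can signal. In epithelia these systems take part in cell sorting, adhesion, spreading and migration, and in the kidney they also act during nephron and vessel development.

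SLC2A2, the gene of GLUT2, had 13, 13, 7 and 17 counts in scrambled replicates 1 to 4 and 0 counts in each siGLUT2 library (edgeR adjusted p = 0.0085, or 0.0538 without scrambled replicate 4). SLC2A2 passed the low-count filter through the scrambled libraries alone, so this adjusted p is no independent check of the knockdown. Its pooled scrambled level was 11.01-fold above a floor of 3 counts over the siGLUT2 group. That value ignores the sampling error of the scrambled counts, so it is not a lower bound. Library totals ran from 5654957 to 8455963 counts, 14844 to 15036 genes were detected in scrambled and 13433 to 13891 in siGLUT2 libraries, and the mitochondrial share was 4.91% to 5.53% against 7.04% to 7.56%. The 53 genes took 0.139% to 0.149% of all counts in scrambled and 0.167% to 0.200% in siGLUT2 libraries. Of 14 proximal tubule markers, LRP2, SLC22A6 and SLC22A8 were among those at 0 in every library, and 3 passed the low-count filter. The summed level was 221 to 241 CPM (counts scaled to library size) in scrambled and 219 to 244 CPM in siGLUT2 libraries. Most of that sum was PAX8, with means of 192 and 176 CPM, which was not called (adjusted p = 0.333). GGT1 of the same list rose (log2 fold change 0.57, adjusted p = 0.0074). The defining endothelial genes PECAM1, CDH5, VWF, TEK and CLDN5, the leukocyte genes PTPRC, CD3E and LYZ, the fibroblast gene COL3A1 and the Schwann cell genes SOX10 and S100B were at 0 throughout. Other genes of these lists changed: CD68 rose (log2 fold change 0.79, adjusted p = 0.00853) and the summed leukocyte list stood at 13.8 to 18.8 CPM in scrambled and 25.9 to 28.5 CPM in siGLUT2 libraries, COL1A1 rose (0.82, adjusted p = 0.0260; fibroblast list 15.6 to 23.1 and 22.9 to 31.7 CPM), and TUBB3 fell (-0.70, adjusted p = 0.00639; neuron and Schwann cell list 37.2 to 51.2 and 24.5 to 31.4 CPM). Of 7 epithelial markers 4 fell (KRT7, KRT8, KRT18 and KRT19), and the summed level of the list was 1415 to 1531 CPM in scrambled and 958 to 1102 CPM in siGLUT2 libraries. The part of these lists in the results below was not tested.

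The low-count filter left 34 of the 53 genes to test. Of 14 semaphorins tested, 7 rose and 0 fell. SEMA7A rose 10.4-fold, and the co-receptor NRP2 and the receptor EPHA2 also rose more than 2-fold. The A-type ephrins EFNA1 and EFNA5 fell, as did NRP1 and the plexin PLXNA3. Together 12 of the 34 tested genes were higher and 4 were lower at an adjusted p below 0.05. Over all 12404 genes tested, 13.9% were higher, 14.4% were lower and 28.3% were called in either direction. Since the families were picked with these results known, nothing is read from the shares side by side. For 18 of the 34 no siGLUT2 library fell within the scrambled range or the reverse (no overlap), which held for 35.1% of all tested genes. The median log2 fold change was 0.28 over the 34 and -0.0029 over all tested genes. PLXNC1 passed the filter through the siGLUT2 libraries alone, and EFNA1, EFNA3 and SEMA3E through the scrambled libraries alone. In bulk RNA, fewer cells of a type and less RNA per cell cannot be told apart.

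**Figure D1:**
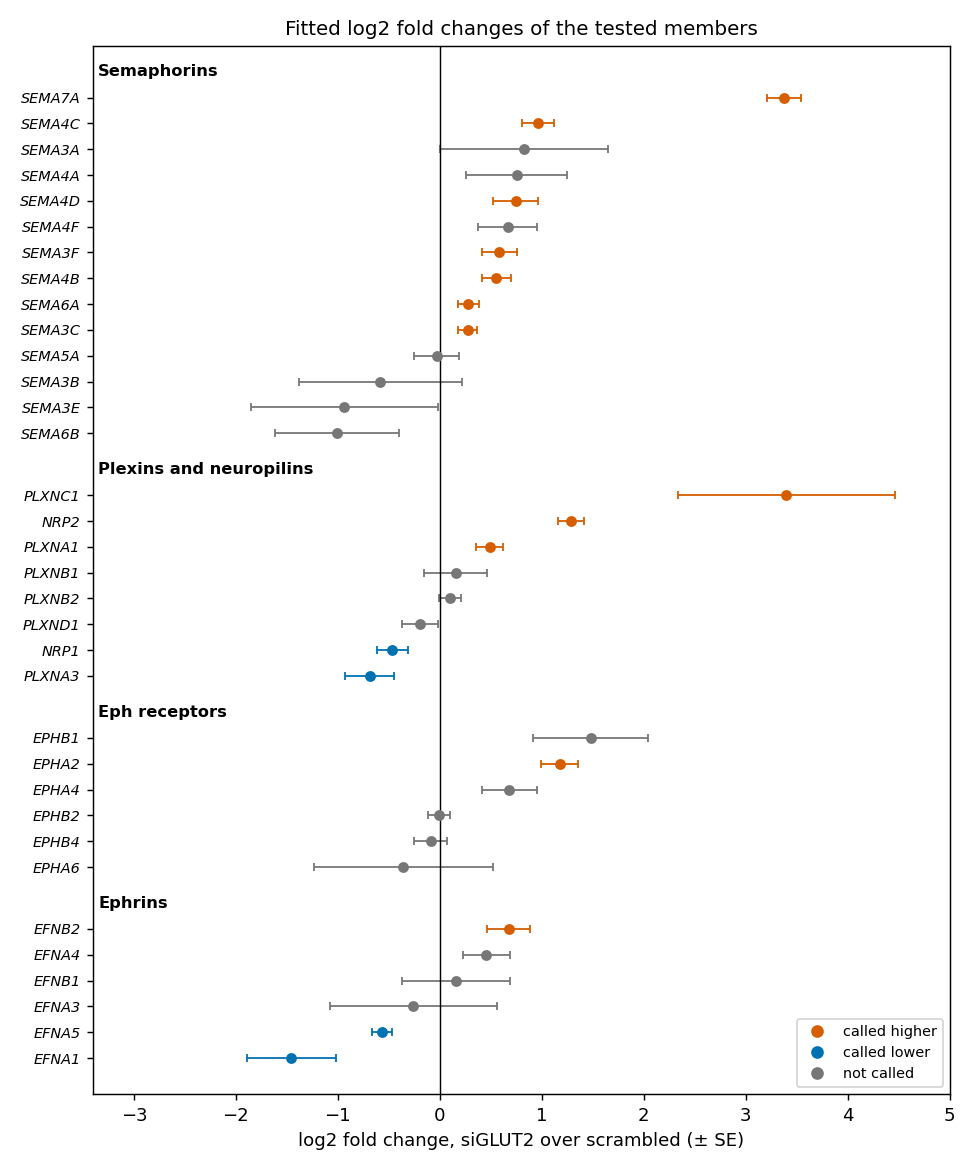
Log2 fold change (siGLUT2 over scrambled, with its standard error) of the 34 tested genes, grouped by family and marked by call. SEMA7A at 3.37 and PLXNC1 at 3.40 lie far to the right, the error of PLXNC1 is wide, and EFNA1 at -1.45 lies farthest to the left among the called genes.

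SEMA7A is a lipid-anchored semaphorin that binds PLXNC1 and, through an RGD sequence, beta-1 integrins. It lies on the minus strand of chromosome 15 (chr15:74409289-74433958, GRCh38). Its levels were 12.6, 13.0, 17.2 and 11.5 CPM in scrambled replicates 1 to 4 and 116, 140.1 and 169 CPM in siGLUT2 replicates 2 to 4. Every siGLUT2 library was far above every scrambled one. The mean went from 13.6 ± 2.51 (SD, n = 4) to 141 ± 26.5 CPM (SD, n = 3), a log2 fold change of 3.37 ± 0.16 (SE; adjusted p = 2.68e-12), and ranked 10 by size among the 1723 genes called higher. PLXNC1, its plexin receptor, was near the limit of detection. It had 0, 2, 2 and 2 counts in scrambled and 18, 15 and 12 counts in siGLUT2 libraries, or 0.211 ± 0.150 (SD, n = 4) and 2.37 ± 0.623 CPM (SD, n = 3). The groups did not overlap, and the log2 fold change was 3.40 ± 1.06 (SE; adjusted p = 0.0191, or 0.0558 without siGLUT2 replicate 2 and 0.0680 without the low-count filter). PLXNC1 entered the test only through its siGLUT2 libraries. Its adjusted p in the reported fit and its lack of overlap therefore depend on that filter and give no independent support. PLXNC1 shares 177 exon bases with CEP83 and 222 with the transcript AC073655.2 on the other strand. Without a stated strand setting their reads cannot be told apart. CEP83 had a log2 fold change of -0.04 (adjusted p = 0.940), and AC073655.2 had 7 counts in scrambled and 15 in siGLUT2 libraries. The integrin subunits ITGB1 and ITGA1, the other receptor of SEMA7A, had log2 fold changes of -0.09 (adjusted p = 0.525) and -0.27 (adjusted p = 0.255).

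The bases before the PLXNC1 start are shown because this gene had at most 2 counts in any scrambled library, and those of EFNA5 as the ephrin with the smallest adjusted p. Both are the 250 bases before the start in RefSeq (GRCh38.p14), PLXNC1 at chr12:94148327-94148576 on the plus strand and EFNA5 at chr5:107670938-107671187 on the minus strand. Capitals mark the GC box, GGGCGG or its complement CCGCCC, the letters bound by SP family factors.
PLXNC1: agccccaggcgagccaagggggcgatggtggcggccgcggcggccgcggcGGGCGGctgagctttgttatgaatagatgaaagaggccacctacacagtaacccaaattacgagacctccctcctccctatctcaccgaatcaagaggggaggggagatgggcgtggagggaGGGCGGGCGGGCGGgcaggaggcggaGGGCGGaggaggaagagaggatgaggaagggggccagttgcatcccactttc
EFNA5: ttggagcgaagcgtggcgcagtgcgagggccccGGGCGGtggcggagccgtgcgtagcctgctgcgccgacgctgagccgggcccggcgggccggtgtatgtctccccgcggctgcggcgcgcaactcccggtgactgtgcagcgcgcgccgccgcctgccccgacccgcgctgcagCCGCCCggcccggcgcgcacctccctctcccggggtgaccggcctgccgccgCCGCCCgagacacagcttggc
PLXNC1 holds 5 matches, 3 of them overlapping in 1 run, and EFNA5 holds 3. RefSeq promoters were matched for 47 of the 53 genes, without NRP1 and SEMA6A among those called. On either strand a GC box stood in 36 of these 47 (76.6%) and in 42.6% of all 35116 promoters. Among the called genes it stood in 9 of 11 higher and 3 of 3 lower ones. Of the 14 windows of called genes, 9 held no base of a GENCODE exon of the gene, and 7 of those 9 had a GC box. A window wholly before the GENCODE gene, as for PLXNC1 and EFNA5, cannot hold such a base. CCAAT stood in 36.2% of the 47 and 32% of all promoters, TATAAA in 6.38% and 10.7%, the E-box CACGTG in 4.26% and 6.34%, and the TEAD word GGAATG in 6.38% and 11.9%. The AP-1 word TGANTCA stood in 0 of the 47 and in 6.57% of all promoters. The promoters as a whole were not matched to the members in gene type or base composition, so nothing is read from the shares side by side. A match describes the letters in these windows only.

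Class 4 semaphorins are membrane-spanning ligands, of which SEMA4D binds plexin-B1 and SEMA4C binds plexin-B2. Of 6 members 5 were tested, 3 rose and 0 fell. SEMA4C stood at 31.8, 26.7, 32.6 and 25.6 CPM in scrambled replicates 1 to 4 and at 54.2, 60.8 and 56.0 CPM in siGLUT2 replicates 2 to 4. The groups lay well apart, with means of 29.2 ± 3.55 (SD, n = 4) and 57.0 ± 3.41 CPM (SD, n = 3), and the log2 fold change was 0.96 ± 0.16 (SE; adjusted p = 7.98e-05). SEMA4B stood at 56.1, 54.9, 78.2 and 70.6 CPM in scrambled and at 82.5, 100.9 and 102 CPM in siGLUT2 libraries. The lowest siGLUT2 library was just above the highest scrambled one, and the log2 fold change was 0.56 ± 0.14 (SE; adjusted p = 0.00479). SEMA4D stood at 20.5, 21.0, 27.8 and 14.5 CPM in scrambled and at 28.0, 43.5 and 34.1 CPM in siGLUT2 libraries. Scrambled replicate 3 and siGLUT2 replicate 2 were almost level, and the log2 fold change of 0.74 ± 0.22 (SE; adjusted p = 0.0134) did not pass without scrambled replicate 4 (0.0570) or siGLUT2 replicate 3 (0.101). SEMA4F had 6.03 to 12.2 CPM in scrambled and 14.3 to 15.6 CPM in siGLUT2 libraries without overlap, but was not called (log2 fold change 0.66 ± 0.29, adjusted p = 0.0965). SEMA4A was not called (0.75 ± 0.49, adjusted p = 0.277). SEMA4G was at 0 in every library. The summed class 4 level was 117 to 151 CPM in scrambled and 188 to 226 CPM in siGLUT2 libraries.

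Class 3 semaphorins are secreted and act through neuropilins. Of 7 members 5 were tested and 2 rose, both by less than 2-fold. SEMA3F, a ligand of NRP2, stood at 25.2, 27.7, 31.1 and 30.7 CPM in scrambled replicates 1 to 4 and at 35.5, 49.9 and 43.5 CPM in siGLUT2 replicates 2 to 4. The groups did not overlap, and the log2 fold change was 0.58 ± 0.17 (SE; adjusted p = 0.0146, or 0.0524 without scrambled replicate 1 and 0.0865 without siGLUT2 replicate 3). SEMA3C, which uses either neuropilin, stood at 173, 177, 198 and 186 CPM in scrambled and at 248, 204 and 213 CPM in siGLUT2 libraries. All siGLUT2 libraries were higher, replicate 2 most of all, and the log2 fold change was 0.27 ± 0.10 (SE; adjusted p = 0.0376). The adjusted p of SEMA3C was 0.111, 0.0961, 0.0721 and 0.145 without scrambled replicates 1, 2 and 4 and siGLUT2 replicate 2. SEMA3A, the collapse-inducing ligand of NRP1, had 7 to 13 counts in scrambled and 7 to 21 in siGLUT2 libraries, which leaves a 95% interval of -0.78 to 2.44 around its log2 fold change of 0.83. SEMA3B (-0.58) and SEMA3E (-0.93) had intervals of similar width, and SEMA3E was at 0 counts in siGLUT2 replicate 3. SEMA3E, SEMA3A and SEMA3D neighbour each other on chromosome 7.

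Of the remaining semaphorins, SEMA6A, a membrane-spanning ligand of A-type plexins, stood at 108, 120.3, 106 and 112 CPM in scrambled replicates 1 to 4 and at 133, 134 and 140.1 CPM in siGLUT2 replicates 2 to 4. The groups did not overlap, and the log2 fold change was 0.28 ± 0.10 (SE; adjusted p = 0.0448). It did not pass without scrambled replicate 1, 3 or 4 (0.108, 0.101 and 0.0877) or siGLUT2 replicate 3 or 4 (0.0771 and 0.0899). SEMA6B was not called at -1.01 ± 0.61 (adjusted p = 0.232). SEMA5A, which carries thrombospondin repeats, stood at 26.7 ± 6.32 (SD, n = 4) and 26.2 ± 6.13 CPM (SD, n = 3), with a log2 fold change of -0.03 and an interval of -0.46 to 0.40. Over all 20 semaphorins the summed level was 478 to 534 CPM in scrambled and 749.5 to 815 CPM in siGLUT2 libraries.

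**Figure D2:**
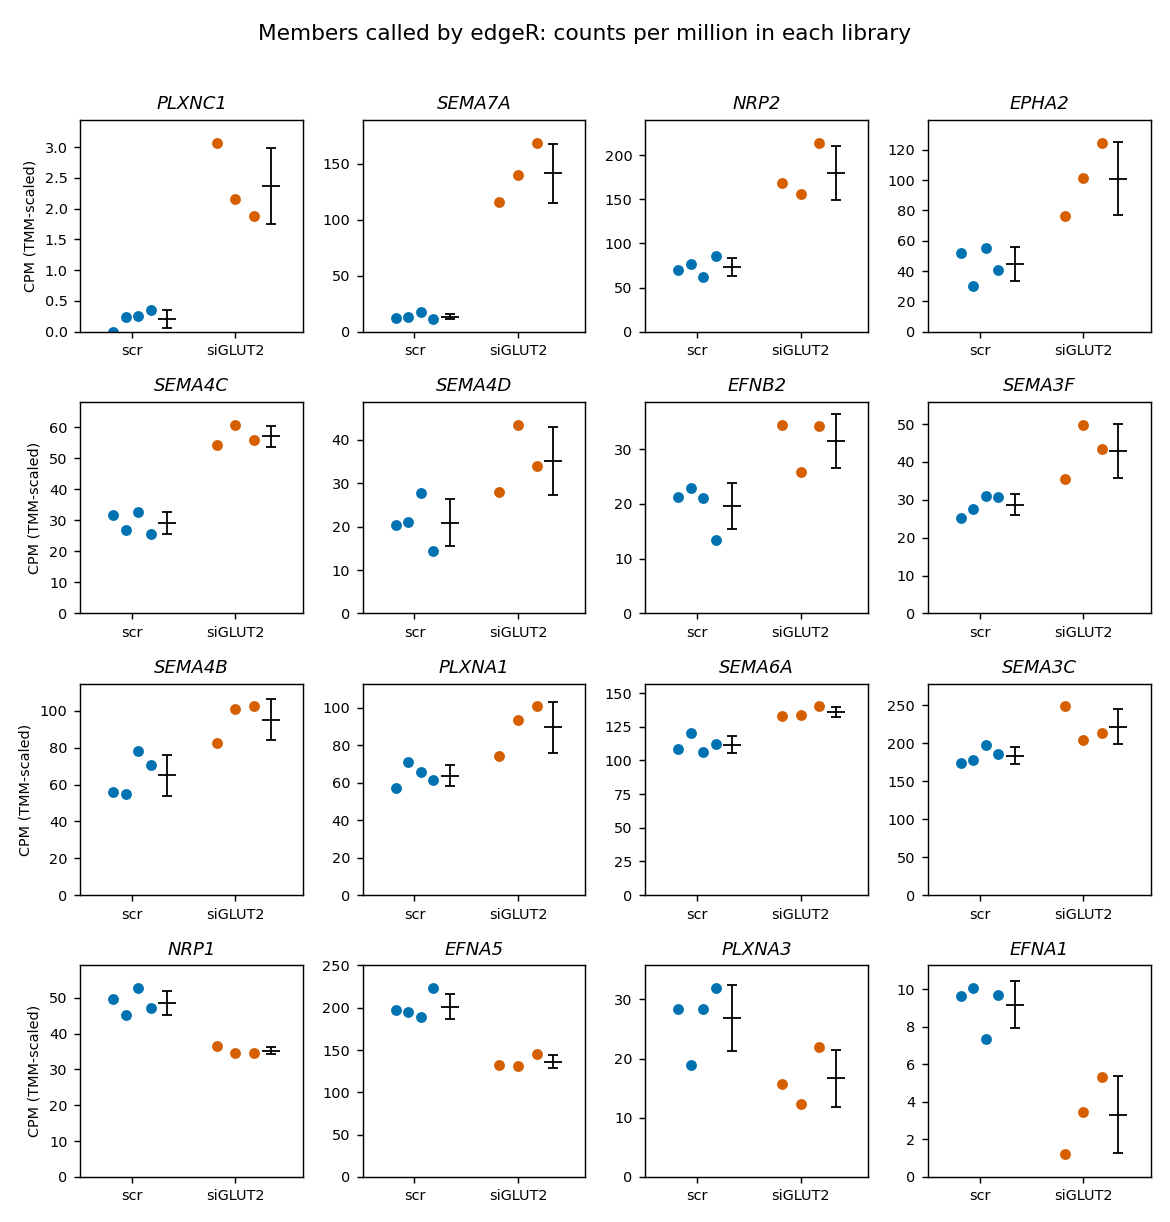
CPM of the 16 called genes in each library, 1 panel per gene with its own linear axis from 0, points in replicate order from left to right and, beside them, the group mean with its SD. The groups are separate in every panel except PLXNA3.

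The neuropilins moved in opposite directions. NRP2, which binds SEMA3F and VEGFC, stood at 69.4, 77.0, 62.1 and 85.2 CPM in scrambled replicates 1 to 4 and at 169, 156 and 214 CPM in siGLUT2 replicates 2 to 4. It rose from 73.4 ± 9.93 (SD, n = 4) to 179 ± 30.4 CPM (SD, n = 3) without overlap, a log2 fold change of 1.29 ± 0.13 (SE; adjusted p = 1.06e-07). NRP1, which binds SEMA3A and VEGFA, stood at 49.8, 45.1, 52.7 and 47.1 CPM in scrambled and at 36.5, 34.7 and 34.6 CPM in siGLUT2 libraries. It fell from 48.7 ± 3.32 (SD, n = 4) to 35.3 ± 1.07 CPM (SD, n = 3), a log2 fold change of -0.47 ± 0.15 (SE; adjusted p = 0.0256). Every siGLUT2 library was below every scrambled one, yet NRP1 no longer passed without scrambled replicates 1, 3 or 4 (0.0645, 0.0798 and 0.0528) or siGLUT2 replicate 3 (0.0557), and with a quality weight per group (0.0563). The ratio of NRP2 to NRP1 within a library, which only restates these opposite changes, was 1.18 to 1.81 in scrambled and 4.49 to 6.19 in siGLUT2 libraries.

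Plexins are the signalling receptors of semaphorins. Of 9 members 6 were tested, 2 rose (PLXNA1 and PLXNC1) and 1 fell (PLXNA3). PLXNA1, a partner of neuropilins, stood at 57.5, 71.0, 65.6 and 61.4 CPM in scrambled replicates 1 to 4 and at 74.2, 93.7 and 100.9 CPM in siGLUT2 replicates 2 to 4. The groups did not overlap, and the log2 fold change was 0.49 ± 0.13 (SE; adjusted p = 0.00842, or 0.0677 with the replicate number as a block). PLXNA3, which with NRP2 transmits SEMA3F, stood at 28.5, 19.0, 28.3 and 31.9 CPM in scrambled and at 15.7, 12.4 and 21.9 CPM in siGLUT2 libraries. The groups overlapped, as siGLUT2 replicate 4 was above scrambled replicate 2, and the log2 fold change was -0.69 ± 0.24 (SE; adjusted p = 0.0350). It no longer passed without scrambled replicates 1, 3 or 4 (0.0910, 0.0883 and 0.124), without siGLUT2 replicate 2 or 3 (0.0578 and 0.152), and with a quality weight per group (0.0633). PLXNA3 also shares 11 exon bases with LAGE3 on the other strand, which fell by 0.64 on the log2 scale (adjusted p = 0.00336). PLXNB2, the receptor of SEMA4C, stood at 125 ± 2.15 (SD, n = 4) and 134 ± 17.6 CPM (SD, n = 3), with a log2 fold change of 0.10 and an interval of -0.11 to 0.31. PLXNB1, the receptor of SEMA4D, was not called (0.15 ± 0.31, adjusted p = 0.757). PLXND1, the receptor of SEMA3E, stood at 103 to 115 CPM in scrambled and at 56.5, 99.7 and 126 CPM in siGLUT2 replicates 2 to 4. Its siGLUT2 libraries lay on both sides of the scrambled range, and its log2 fold change was -0.19 ± 0.17 (adjusted p = 0.452), or -0.46 (adjusted p = 0.0318) without siGLUT2 replicate 4.

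Among Eph receptors 6 of 14 were tested, 1 rose and 0 fell. EPHA2, a receptor of epithelial cells whose ligand is EFNA1, stood at 51.9, 30.5, 55.3 and 40.7 CPM in scrambled replicates 1 to 4 and at 76.4, 101.6 and 124 CPM in siGLUT2 replicates 2 to 4. It rose from 44.6 ± 11.3 (SD, n = 4) to 100.8 ± 24.0 CPM (SD, n = 3) without overlap, a log2 fold change of 1.18 ± 0.18 (SE; adjusted p = 3.57e-05). EPHB2 and EPHB4, receptors of B-type ephrins, were not called, with narrow intervals. EPHB2 stood at 120.1 ± 2.59 (SD, n = 4) and 119 ± 16.6 CPM (SD, n = 3), with a log2 fold change of -0.01 and an interval of -0.23 to 0.21. EPHB4 stood at 38.9 ± 2.04 (SD, n = 4) and 36.5 ± 2.64 CPM (SD, n = 3), with -0.09 and an interval of -0.40 to 0.22. EPHA4, which binds ephrins of both types, stood at 13.3, 13.1, 13.0 and 7.41 CPM in scrambled and at 23.9, 15.9 and 17.0 CPM in siGLUT2 libraries. The groups did not overlap, but the log2 fold change of 0.68 ± 0.27 did not pass (adjusted p = 0.0634). EPHB1 stood at 3.50, 1.80, 1.39 and 1.76 CPM in scrambled and at 3.07, 8.07 and 6.57 CPM in siGLUT2 libraries. It overlapped and did not pass (1.48 ± 0.56, adjusted p = 0.0545), but passed without scrambled replicate 1 (0.0430), without siGLUT2 replicate 2 (0.0155) and in DESeq2 (0.0290). EPHA6 had 4 to 18 counts in any library and was not called (-0.36 ± 0.87, adjusted p = 0.805). At the threshold of 0.05, the called genes nearest to it were PLXNA3, SEMA3C and SEMA6A, and those just outside were EPHB1, EPHA4 and SEMA4F.

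Of 8 ephrins 6 were tested, 1 rose and 2 fell. EFNA5, a lipid-anchored ligand of EphA receptors and of EPHB2, stood at 198, 195, 189.6 and 223 CPM in scrambled replicates 1 to 4 and at 133, 131 and 145 CPM in siGLUT2 replicates 2 to 4. It fell from 201.3 ± 15.04 (SD, n = 4) to 136 ± 7.68 CPM (SD, n = 3) without overlap, a log2 fold change of -0.56 ± 0.10 (SE; adjusted p = 0.000142). EFNA1 stood at 9.67, 10.1, 7.34 and 9.70 CPM in scrambled and at 1.19, 3.46 and 5.32 CPM in siGLUT2 libraries. Every siGLUT2 library was lower, though they differed among themselves, and the log2 fold change was -1.45 ± 0.44 (SE; adjusted p = 0.0158, or 0.0523 without scrambled replicate 2 and 0.0524 with a quality weight per group). EFNB2, the membrane-spanning ligand of EPHB4, stood at 21.2, 22.9, 21.0 and 13.4 CPM in scrambled and at 34.5, 25.8 and 34.2 CPM in siGLUT2 libraries. The groups did not overlap, and the log2 fold change was 0.67 ± 0.21 (SE; adjusted p = 0.0209, or 0.0779 without scrambled replicate 4, 0.0514 without siGLUT2 replicate 2 and 0.0528 without siGLUT2 replicate 4). EFNA4, EFNA3 and EFNA1 lie in a row on chromosome 1, with gaps of 9.3 kb and 39.9 kb. EFNA4 stood at 16.9 ± 3.27 (SD, n = 4) and 23.1 ± 4.72 CPM (SD, n = 3) and was not called (0.46 ± 0.23, adjusted p = 0.155), and EFNA3 was not called either (-0.26 ± 0.82, adjusted p = 0.851). EFNB1, a B-type ligand with 16 to 38 counts in any library, was not called (0.16 ± 0.53, adjusted p = 0.860). The summed A-type ephrin level was 219 to 255 CPM in scrambled and 159 to 170.3 CPM in siGLUT2 libraries, while the summed EphA receptor level was 45.5 to 71.1 CPM and 101.1 to 143 CPM. EFNA5 made up most of the ephrin sum and EPHA2 most of the receptor sum. The ratio of EPHA2 to its ligand EFNA1 within a library was 3.02 to 7.53 in scrambled and 23.4 to 64.0 in siGLUT2 libraries. It only restates the opposite changes of these genes given above. EFNA1 passed the filter through the scrambled libraries alone and had 7, 24 and 34 counts in siGLUT2 replicates 2 to 4. Of the 4 genes called lower, 2 were called without scrambled replicate 1, 3 or 4 or without siGLUT2 replicate 3, and 1 with a quality weight per group.

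**Figure D3:**
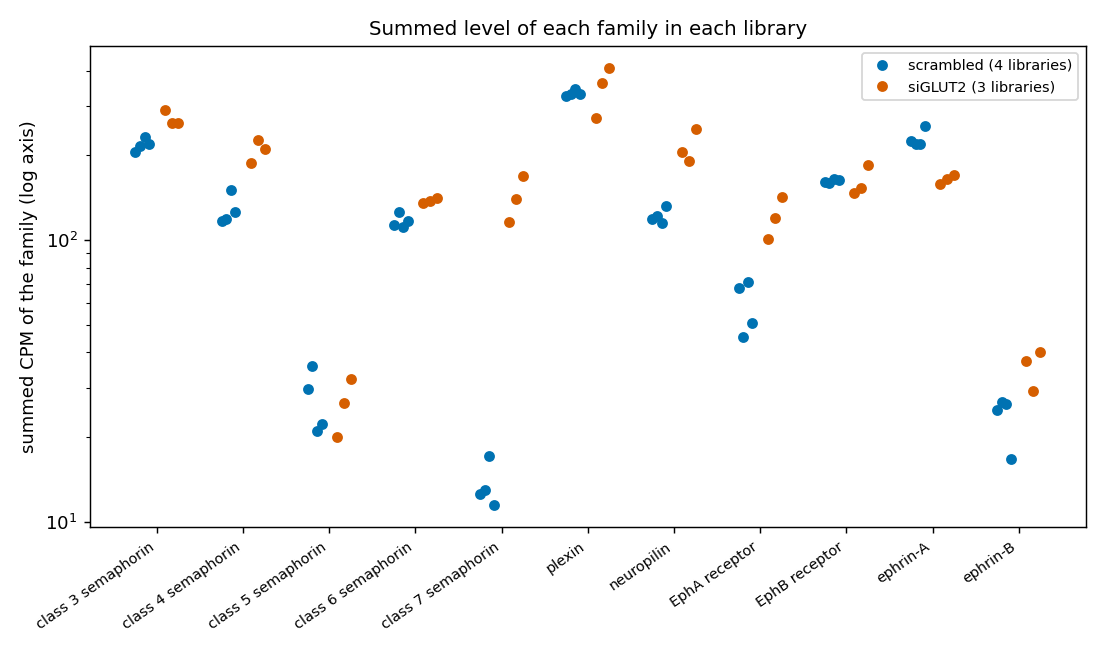
Summed CPM (log axis) of each family, with 1 point per library. Semaphorins of classes 3, 4, 6 and 7, neuropilins, EphA receptors and B-type ephrins are higher in all 3 siGLUT2 libraries, A-type ephrins are lower in all 3, and class 5 semaphorins, plexins and EphB receptors overlap. A sum follows its most abundant genes and does not describe each member. Among others, NRP1 (log2 fold change -0.47), SEMA6B (-1.01, not called) and EFNA4 (0.46, not called) went against the sums of their families.

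The stability of each call under other settings is plotted for the 16 called genes. SEMA7A, NRP2, EPHA2, SEMA4C, SEMA4B and EFNA5 were called under each of 15 alternative settings, while the other 10 lost the call under at least 1. With the replicate number as a block, NRP1, PLXNA1, PLXNA3, PLXNC1, SEMA3C, SEMA3F and SEMA6A lost the call. SEMA3C and SEMA6A also lost it without the low-count filter and with a quality weight per group.

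**Figure D4:**
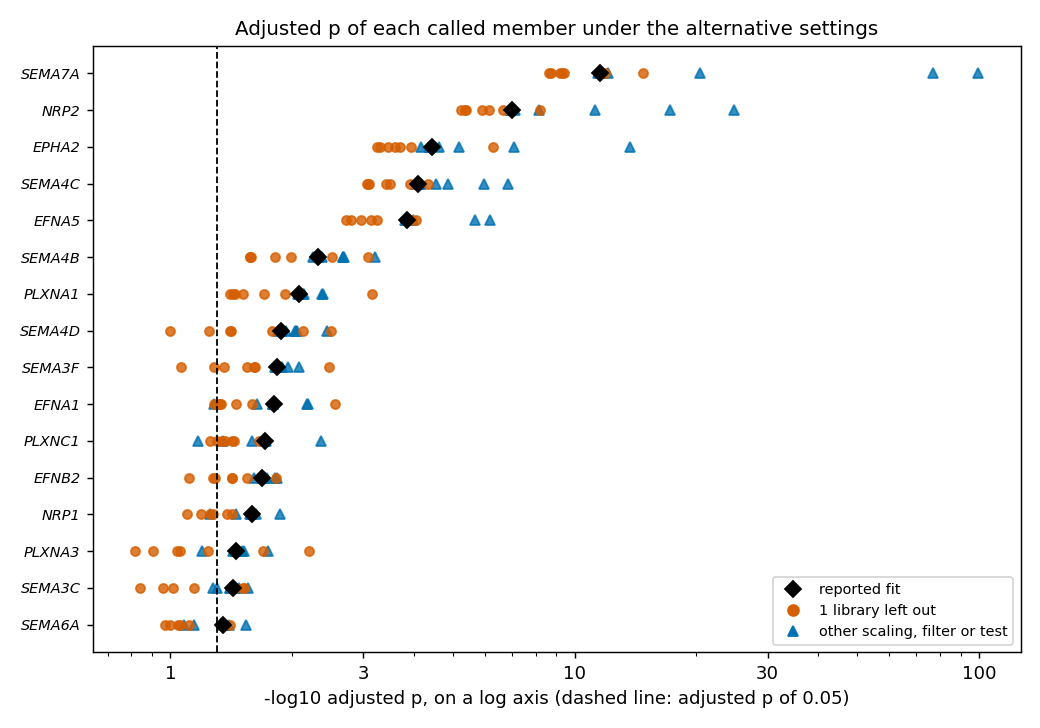
Adjusted p of the 16 called genes on a -log10 scale (log axis) in the reported fit, with each library left out in turn and under other scalings, filters or tests; the dashed line is an adjusted p of 0.05. The fit with the replicate number as a block is not plotted. SEMA7A, NRP2, EPHA2, SEMA4C, EFNA5, SEMA4B and PLXNA1 stay to the right of the line in every plotted setting. PLXNA1 lost its call only in the block fit that is not plotted.

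The other 19 genes were not tested. EFNA2, EPHA8, PLXNA2, PLXNB3, SEMA3G, SEMA4G and SEMA6D had 0 counts in every library. A further 12 had some counts but too few for the test. Of these, EFNB3, EPHA1, EPHA10, EPHA3, EPHA7, EPHB3, EPHB6, PLXNA4 and SEMA5B had counts in scrambled libraries only, from 1 (PLXNA4) to 29 (EPHB3) over the group. EPHA5 had 0 and 3, SEMA3D 12 and 18, and SEMA6C 33 and 15 counts in the scrambled and siGLUT2 groups, whose totals were 29109882 and 19230905 counts. Thus 9 of 12 (75%) were at 0 in the siGLUT2 group and 1 (8.33%) in the scrambled group, against 45.1% and 8.94% of all 5154 such genes.

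Genes that act with these ligands and receptors were taken from lists set by function. In the order below, 14.8%, 44.8%, 60% and 11.1% of the tested genes of each list were called in either direction. Over all tested genes it was 28.3% (13.9% higher and 14.4% lower), and nothing is read from these shares. Of 27 tested co-receptors and effectors of semaphorins 2 rose and 2 fell. LIMK1, the kinase that inactivates cofilin, rose from 38.4 ± 2.71 (SD, n = 4) to 103 ± 14.7 CPM (SD, n = 3), a log2 fold change of 1.42 ± 0.14 (adjusted p = 8.11e-08). Cofilin itself, CFL1, which severs actin filaments, fell by 0.41 on the log2 scale (adjusted p = 0.00484). PTK2, the focal adhesion kinase, rose by 0.52 (adjusted p = 0.00172), and DPYSL3, a collapsin response mediator, fell by 0.66 (adjusted p = 0.000205). Of 29 tested effectors and proteases of Eph receptors and ephrins 6 rose and 7 fell. VAV3, a Rac exchange factor that docks to activated Eph receptors, fell from 99.7 ± 5.26 (SD, n = 4) to 32.6 ± 7.80 CPM (SD, n = 3), a log2 fold change of -1.61 ± 0.15 (adjusted p = 6.67e-08). The phosphatases PTPN13 and PTPN1, which act on ephrins or Eph receptors, fell by 0.75 and 0.41, and the kinase ABL2 rose by 0.49. Of 5 tested vascular endothelial growth factors and their receptors 3 rose and 0 fell. VEGFC, an NRP2 ligand, rose from 21.4 ± 3.36 (SD, n = 4) to 54.9 ± 8.71 CPM (SD, n = 3), a log2 fold change of 1.37 ± 0.18 (adjusted p = 5.16e-06). VEGFB and VEGFA rose by 0.69 and 0.59, and their receptors FLT1 and KDR were at 0 in every library. Of 9 tested genes of the Slit, netrin and repulsive guidance molecule families 1 rose, RGMB (1.56 ± 0.31, adjusted p = 0.000567), a membrane-anchored co-receptor of bone morphogenetic proteins.

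The 7-base words GACCTTA and ACCTTAA, which overlap by 6 bases, had been picked by an earlier scan of these same fold changes over 3' untranslated regions (UTRs). They were searched on the sense strand of the longest annotated 3' UTR (GENCODE release 29). Either word stood in 15.4% of all 11621 tested genes with such a UTR. It stood in 0 of the 12 genes called higher, 0 of the 4 called lower and 6 of the 18 not called (EPHA4, EPHB1, SEMA3A, SEMA4F, SEMA5A and SEMA6B). A site from each of 2 Eph receptors is shown because both genes lay just outside the threshold, with the word in capitals.
EPHA4: ccctttttgggGACCTTAatatatttttt
EPHB1: tttctccttttACCTTAAtctccttgcta
The EPHA4 site shown starts at base 2450 of a UTR of 3343 bases, and the EPHB1 site at base 1278 of 1347. The EPHA4 UTR also holds ACCTTAA at bases 1650, 1691 and 2451. The last of these overlaps the GACCTTA shown and is not capitalised in full. Both genes had higher mean CPM in siGLUT2 libraries, as given above, but neither was called. The other tested genes with a word went both ways, with log2 fold changes of 0.83 (SEMA3A), 0.66 (SEMA4F), -0.03 (SEMA5A) and -1.01 (SEMA6B). The median UTR length was 2373 bases over the 16 called genes, 1259 over the 18 not called and 1442 over all tested genes.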

How the data were processed

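Per the labels' protocols, 3' digital mRNA-seq libraries were made from 125 ng of RNA. The authors deposited unnormalised whole-number counts for each Ensembl gene in 7 libraries (5654957 to 8455963 counts each). Per the submitters' processing notes the tools were STAR, HTSeq and edgeR, with no version or role, and the build was hg38. Not given in the sources used here: annotation release, strand setting, molecular identifiers. So reads may not be independent molecules. Transcript length was not corrected for, so a ratio of different genes within a library is compared only between libraries and says nothing of which is more abundant.

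Genes were filtered with filterByExpr (minimum count 10, minimum total 15), scaled with TMM and tested with edgeR's quasi-likelihood test (edgeR 4.0.16, limma 3.58.1, R 4.3.3; Python 3.11.15) on 4 scrambled and 3 siGLUT2 libraries, with Benjamini-Hochberg adjustment over all 12404 genes and a threshold of 0.05. CPM are TMM-scaled, and intervals are 95% from the standard error. The fit was checked on simulated data. Pairwise chi-square values between replicates, per degree of freedom, were 4.70 to 7.85 in scrambled and 9.76 to 16.6 in siGLUT2 libraries. All were well above sampling noise, so no library was taken for a copy of another and all 7 were kept. The siGLUT2 libraries thus varied more among themselves, and the reported fit does not model a separate spread for each group. Alternatives were other scalings and filters, DESeq2 1.42.0, limma-voom, a replicate block, each library left out, a threshold of 0.01 and, chosen after seeing the data, limma-voom with quality weights by group.

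Members and lists were chosen with earlier results of these data known. Named were every called member, the others by value, range or count, and up to 4 called genes of each functional list with the smallest adjusted p. EPHA4 and EPHB1 sites and both promoters were chosen after values were seen. Proteins were not used here.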

Additional observations from a re-analysis of the deposited data

Results flagged for a closer look

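Single scrambled libraries stood apart from the other 3 in 3 of the 34 tested genes, where chance gives about 1 in 20. EFNA1 was lowest in scrambled replicate 3, at 7.34 CPM, and without that library its log2 fold change was -1.55 (adjusted p = 0.0257). EPHA4 was lowest in scrambled replicate 4, at 7.41 CPM, and without that library its log2 fold change was 0.53 (adjusted p = 0.184). EPHB2 was highest in scrambled replicate 3, at 124 CPM, and without that library its log2 fold change was 0.01 (adjusted p = 0.963).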

How the results depend on the processing

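Against 12 genes called higher and 4 called lower, an adjusted p of 0.01 gave 6 and 1, and limma-voom with quality weights by group, added after seeing the data, gave 10 and 1. Leaving out 1 library at a time gave 8 to 11 higher and 2 to 5 lower. The median log2 fold change of the tested members, 0.28, was 0.038 without the low-count filter and 0.46 with the stricter one, which test more and fewer of the genes with few counts, and ran from 0.28 to 0.34 with 1 library left out. SLC2A2 had 0 counts in every siGLUT2 library, so its fitted log2 fold change (-6.84 to -6.36 with 1 library left out) depends on the prior count and measures no size, and the stricter filter removed the gene. For single named genes 620 results kept direction and side of the threshold, 42 lost the call, 4 gained it and 10 turned direction. Those 10 passed the threshold neither before nor after the turn, and the cause was not tested: with 1 library left out the log2 fold change ran from -1.19 to 0.28 for EFNA3, -0.25 to 0.36 for EFNB1, -0.13 to 0.052 for EPHB2, -0.46 to 0.066 for PLXND1 and -0.21 to 0.13 for SEMA5A. Depth limited genes with few counts most, such as PLXNC1, EFNA3, EPHA6, SEMA3A, SEMA3B and SEMA3E, and 12 counted genes could not be tested.

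The labels do not say whether same-numbered libraries share a day or culture. The correlations of their deviations from the group means were 0.0084, 0.015 and -0.0083, and not every library correlated best with its own number. So few pairs cannot decide the matter. With the replicate number as a block, 7 genes were called higher and 2 lower, the log2 fold changes of SEMA5A and SLC2A2 were 0.038 and -6.61 (the latter with adjusted p = 0.0577), and calls over all genes went from 3509 to 2649.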

Other observations

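The siGLUT2 libraries were not alike within the families. Replicate 2 was the lowest of the 3 for 18 of the 34 tested members (52.9%, against 35.5% of all tested genes), and replicate 4 was the highest for 16 (47.1%, against 33.5%). Among the 12 members called higher, replicate 2 was lowest in 8, against 28.7% of all genes called higher. The summed plexin level was 272, 361 and 409.5 CPM in siGLUT2 replicates 2, 3 and 4, and 326 to 345 CPM in scrambled libraries.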
